A study of Mus musculus with 6 samples.

Results

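The triglyceride assembly enzymes described here are 7 genes, Gpd1, Gpam, Agpat2, Lpin1, Dgat1, Dgat2 and Pnpla3, followed in fat of NOD mice, a strain in which autoimmunity destroys the insulin-producing beta cells. They were taken by name as the genes that lead from glycerol phosphate to triglyceride. The rule names genes and uses no measured value, but the list was drawn up with earlier results of these data known. The 7 genes were represented by 14 of the 45101 probe sets of the array, of which the brightest by mean over the 6 arrays stood for each gene. All 7 lay above the filter on low signal and were among the 13043 genes tested. RNA of whole fat tissue was measured on 6 Affymetrix arrays, 2 in each of 3 groups. The normoglycemic group (NOR) was female and 10 weeks old with normal blood glucose. The diabetic group (DIA) had had blood glucose above 300 mg/dl on each of 3 days in a row. The AAT-treated group (AAT) had received alpha-1-antitrypsin, a serum inhibitor of proteases, and its diabetes had reverted stably so that insulin was no longer needed. Age and sex are given for the normoglycemic group alone, and the fat depot and the dose and duration of treatment are not given in the sources used here. Whether both arrays of one group hold RNA of different mice is not stated, and the p-values cover the spread between arrays alone, which may be technical. In whole tissue, fewer cells of a type and less RNA per cell cannot be told apart.

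Fat cells store energy by esterifying fatty acids to a glycerol backbone, stepwise, on the endoplasmic reticulum and the outer mitochondrial membrane. Gpd1 reduces a glycolytic intermediate to glycerol 3-phosphate, Gpam and Agpat2 add the first and the second acyl chain to give phosphatidic acid, Lpin1 removes the phosphate to give diacylglycerol, and Dgat1 or Dgat2 adds the last chain. Pnpla3 is a lipid droplet protein of the patatin-like family with lipase and acyltransferase activities. Insulin and carbohydrate intake raise transcription of much of this pathway through the factors SREBP-1c and ChREBP, and loss of AGPAT2 function leaves people with almost no adipose tissue.

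Upstream sequences are shown for the 4 members that the RefSeq promoter table holds (build GRCm38.p6). A link between these sequences and the signals below was not tested. Each is the 250 bases before the annotated start, 5′ to 3′ on the strand of the gene. Capitals mark letters of 4 searched motifs on either strand: the NF-Y box CCAAT, the E-box CACGTG, the core CACCCCAC of the classical sterol regulatory element, and the GC box GGGCGG. The positions are chr19:55127239-55127488 on the minus strand for Gpam, chr2:26604418-26604667 on the minus strand for Agpat2, chr15:84167566-84167815 on the plus strand for Pnpla3, and chr12:16610967-16611216 on the minus strand for Lpin1.
Gpam: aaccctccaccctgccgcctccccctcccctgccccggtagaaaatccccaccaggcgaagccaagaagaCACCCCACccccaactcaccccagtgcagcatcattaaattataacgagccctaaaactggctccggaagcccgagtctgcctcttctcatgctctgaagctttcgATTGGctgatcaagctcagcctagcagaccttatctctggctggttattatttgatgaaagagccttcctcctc
Agpat2: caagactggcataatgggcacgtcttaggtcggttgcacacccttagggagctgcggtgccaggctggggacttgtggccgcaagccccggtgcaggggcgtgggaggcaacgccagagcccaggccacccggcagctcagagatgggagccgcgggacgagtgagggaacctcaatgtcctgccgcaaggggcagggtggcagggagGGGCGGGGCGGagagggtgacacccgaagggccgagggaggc
Pnpla3: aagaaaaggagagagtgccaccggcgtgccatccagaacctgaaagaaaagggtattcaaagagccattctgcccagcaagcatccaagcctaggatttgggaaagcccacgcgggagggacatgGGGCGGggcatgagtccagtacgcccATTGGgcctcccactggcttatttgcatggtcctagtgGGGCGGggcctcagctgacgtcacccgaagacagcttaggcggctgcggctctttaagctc
Lpin1: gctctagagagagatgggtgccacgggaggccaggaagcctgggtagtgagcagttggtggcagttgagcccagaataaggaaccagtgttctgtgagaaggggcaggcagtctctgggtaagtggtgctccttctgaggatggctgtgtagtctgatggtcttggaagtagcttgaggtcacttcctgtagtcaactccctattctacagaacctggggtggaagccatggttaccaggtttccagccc
The Gpam sequence held the sterol element core, whose match begins 180 bases before the start, and an NF-Y box in the reverse orientation 74 bases before it. The sterol core occurs in 2.58% of the 32851 RefSeq windows of this length and the NF-Y box in 33.8%. The other annotated start of Gpam held only 1 GC box. The Pnpla3 sequence held a reversed NF-Y box, from 99 bases before the start, and GC boxes from 125 and 61 bases before it. The Agpat2 sequence held 2 GC boxes that overlap in a single base, from 42 and 37 bases before the start. GC boxes occur in 32.7% of the windows. The E-box, found in 6.02% of the windows, was in none of the 5 windows of these genes, and the Lpin1 sequence held none of the 4 motifs. How many of all windows hold none of the 4 was not counted. These matches describe letters in a window and show neither binding nor its absence.

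The arrays differed in technical measures that stand beside every value below. Beta-actin control probe sets at the 3′ end gave more signal than those at the 5′ end, a gap that widens as RNA is degraded, and this ratio was 3.63 and 4.3 on the normoglycemic arrays, 15.2 and 15.5 on the diabetic arrays and 9.08 and 5.87 on the AAT-treated arrays. For Gapdh it was 0.91 and 0.95, 2.46 and 4.63, and 2.31 and 0.79 in the same order of groups, so that diabetic 2 was the highest and AAT-treated 2 the lowest array, as in the mean of the enzymes given below. The added hybridisation controls were bright on normoglycemic 1 (mean signal 128547) and AAT-treated 2 (86286), and dimmer elsewhere (25158 to 48494). Normoglycemic 1 and AAT-treated 2 also had the lowest scores on the first principal component (−0.73 and −0.34, the others 0.05 to 0.42). Results are therefore given with and without these arrays. Fat cell transcripts were abundant: all 10 adipocyte markers with a named probe set were above the filter, with Adipoq, the fat cell hormone adiponectin, between 15690 and 48984. Summed adipocyte signal was 518087 to 838093 in normoglycemic, 333063 to 545469 in diabetic and 330197 to 539379 in AAT-treated fat. Such sums follow the brightest markers and give another order than log2 levels. By the mean log2 level of the same 10, each centred over the 6 arrays, AAT-treated 2 was lowest (−0.65) and diabetic 2 highest (0.63). Of the other marker lists, 9 of 10 macrophage markers were higher in diabetic than in normoglycemic fat (summed signal 16572 and 31374 against 7237 and 7479), and 7 of 7 smooth muscle markers were higher in AAT-treated than in diabetic fat (60372 and 92441 against 14880 and 10432). All 5 red cell and platelet markers were lower in diabetic than in normoglycemic fat (summed signal 2602 and 3196 against 9436 and 12148). In that comparison 6 of 6 endothelium and 0 of 7 smooth muscle markers were higher, as were 46.4% of all genes. Between AAT-treated and diabetic fat 4 of 5 B cell markers were higher (29744 and 10071 against 1092 and 5239), as were 51.2% of all genes. The remaining lists had markers in both directions in both comparisons. The part of RNA quality, hybridisation brightness and these other cells in the results below was not tested.

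Gpd1, which supplies the glycerol backbone, gave signals of 4288 and 2819 on the normoglycemic arrays, 4928 and 7952 on the diabetic arrays and 1379 and 2085 on the AAT-treated arrays. Both diabetic arrays were the highest and both AAT-treated arrays the lowest, with no overlap between any of the groups. On the log2(signal + 74) scale used for all differences here, with SE from limma and n = 2 arrays a group, Gpd1 differed by 0.83 ± 0.39 between diabetic and normoglycemic fat and by −1.84 ± 0.39 between AAT-treated and diabetic fat. It was 1 of 2 members whose AAT-treated arrays both lay below both normoglycemic arrays, by −1.0 ± 0.39. The difference from normoglycemic fat depended on single arrays, at 0.49 without diabetic 2 and 0.54 without normoglycemic 2.

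Gpam, the mitochondrial enzyme that attaches the first acyl chain, gave 15498 and 16461 on the normoglycemic arrays, 27805 and 34354 on the diabetic arrays and 15795 and 9258 on the AAT-treated arrays. The diabetic arrays stood above the other 4, while AAT-treated 1 lay between the 2 normoglycemic arrays. The difference was 0.95 ± 0.40 for diabetic against normoglycemic fat and −1.35 ± 0.40 for AAT-treated against diabetic fat. These correspond to 1.93-fold higher and 2.55-fold lower levels.

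Agpat2, which attaches the second acyl chain, gave 2884 and 2119 on the normoglycemic arrays, 7501 and 10563 on the diabetic arrays and 1841 and 1183 on the AAT-treated arrays. The 3 groups did not overlap, and the diabetic arrays were set off by the widest gap among the members, with the nearest normoglycemic array 1.36 log2 units below and the nearest AAT-treated array at −1.98 from the lower diabetic one. Diabetic fat was 3.52-fold above normoglycemic fat (log2 difference 1.82 ± 0.37, limma adjusted p = 0.458). AAT-treated fat was 5.79-fold below diabetic fat (−2.53 ± 0.37, limma adjusted p = 0.327), which placed Agpat2 at rank 4 of 13043 genes by p in that comparison. Leaving out each array in turn gave 1.57 to 2.06 and −2.84 to −2.23. These signs were fixed in advance, since the groups do not overlap.

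Lpin1, the phosphatase that yields diacylglycerol, gave 4548 and 3821 on the normoglycemic arrays, 5787 and 5697 on the diabetic arrays and 9275 and 5118 on the AAT-treated arrays. Its highest array was AAT-treated 1, and the AAT-treated arrays lay on both sides of the diabetic ones. Diabetic fat differed from normoglycemic fat by 0.45 ± 0.37, the smallest difference among the members, and AAT-treated from diabetic fat by 0.26 ± 0.37 (95% interval −0.60 to 1.12). That value was 0.68 without AAT-treated 2 and −0.16 without AAT-treated 1. Within arrays, the ratio of Lpin1 to each of the other 6 members was higher on both AAT-treated than on both diabetic arrays. On the log2 scale the ratio of Lpin1 to Pnpla3 differed by 2.80, the widest of the 6, and that of Gpam to Lpin1 by −1.61, the narrowest.

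Dgat1, one of the pair of unrelated enzymes that complete the triglyceride, gave 5189 and 4411 on the normoglycemic arrays, 14244 and 12740 on the diabetic arrays and 8495 and 1140 on the AAT-treated arrays. The diabetic arrays agreed closely and were the highest, and the AAT-treated arrays lay on either side of the normoglycemic ones. Diabetic fat differed from normoglycemic fat by 1.48 ± 0.76, where the wide SE comes with an SD of 1.99 in AAT-treated against 0.11 in diabetic and 0.16 in normoglycemic fat. AAT-treated fat differed from diabetic fat by −2.07 ± 0.76. This value was −3.48 without AAT-treated 1 and −0.66 without AAT-treated 2, so its size rested on which AAT-treated array was kept.

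Dgat2, the other enzyme of this step, gave 2888 and 3376 on the normoglycemic arrays, 6906 and 30800 on the diabetic arrays and 3999 and 2095 on the AAT-treated arrays. Diabetic 2 stood far above all other arrays, and diabetic 1 was still above the other 4. The difference was 2.2 ± 0.65 for diabetic against normoglycemic and −2.30 ± 0.65 for AAT-treated against diabetic fat. Without diabetic 2 these became 1.13 and −1.23. The spread within groups thus lay in different places for the 2 enzymes of the last step, in the AAT-treated arrays for Dgat1 and in the diabetic arrays for Dgat2.

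Pnpla3, the droplet protein, gave 511 and 296 on the normoglycemic arrays, 1383 and 5077 on the diabetic arrays and 469 and 335 on the AAT-treated arrays. The normoglycemic and AAT-treated arrays intermixed, and both diabetic arrays lay above them. Diabetic fat was 5.89-fold above normoglycemic fat (2.56 ± 0.57, limma adjusted p = 0.458), and AAT-treated fat 5.81-fold below diabetic fat (−2.54 ± 0.57, limma adjusted p = 0.600). Among the members the first was the largest difference of its comparison, and the second was level with that of Agpat2. Without diabetic 2 they were 1.65 and −1.63. The AAT-treated and normoglycemic means were 8.88 and 8.86 on the log2 scale.

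**Figure D1:**
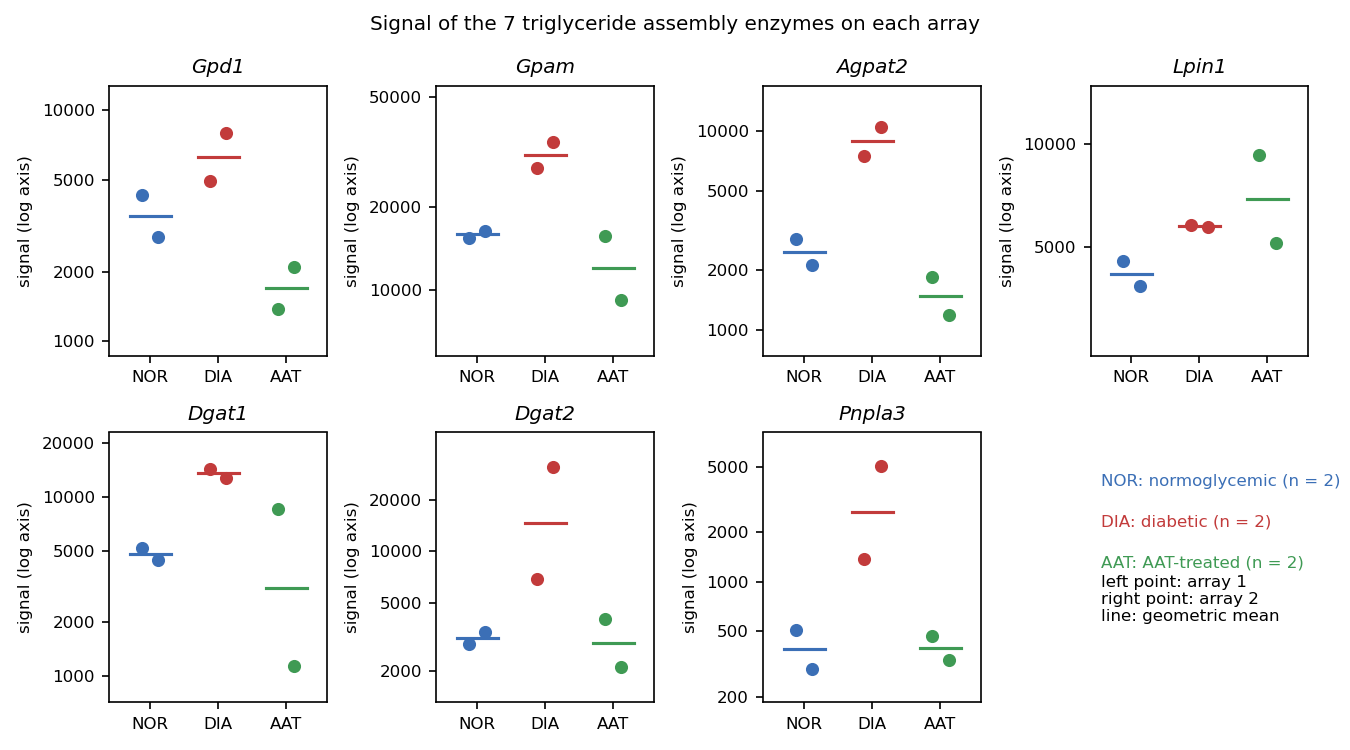
Signal of each enzyme on every array, on log axes of their own (NOR normoglycemic, DIA diabetic, AAT AAT-treated; points are arrays 1 and 2, lines geometric means, n = 2 a group). Both diabetic points lie above the other 4 in every panel but that of Lpin1, and the diabetic points of Dgat2 (6906 and 30800) and the AAT-treated points of Dgat1 (8495 and 1140) lie far apart.

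All 7 members had a higher mean signal in diabetic than in normoglycemic fat, and none passed the adjusted test. Of all genes tested 46.4% were higher and 53.6% lower. In all 7 the groups did not overlap (20.2% of all genes were higher and 24.5% lower without overlap). The median log2 difference was 1.48 over the members and −0.06 over all genes, and the members ran from 0.45 for Lpin1 to 2.56 for Pnpla3. At an unadjusted limma p under 0.05 there were 4 members, Gpam, Agpat2, Dgat2 and Pnpla3, where 5.27% of all genes (688) were higher and 4.62% (603) lower. Their 95% intervals were 0.03 to 1.87 for Gpam, 0.98 to 2.66 for Agpat2, 0.72 to 3.68 for Dgat2 and 1.26 to 3.86 for Pnpla3. After Benjamini-Hochberg adjustment 0 of 13043 genes passed by limma (0%), and the adjusted p of the members ran from 0.458 to 0.676. Agpat2 and Pnpla3 stayed under that level in every alternative run, and Dgat2 in all but that without diabetic 2. Gpam did not: it left the 4 with no filter on low signal, with the mean of all probe sets and with a replicate block. It also left with the hybridisation controls as a covariate and relative to the adipocyte markers. The same held in every run that left out a normoglycemic or diabetic array, and with single arrays left out Gpam was at 0.80 to 1.10. Others joined: Dgat1 with only the compared groups fitted and relative to the adipocyte markers, and Gpd1 with that covariate. With both arrays that stood apart, normoglycemic 1 and AAT-treated 2, left out, the members' median was 1.59. All 7 stayed higher, a sign fixed in advance where groups do not overlap. With the level of the hybridisation controls as a covariate, Dgat1 differed by 0.57, Lpin1 by 0.23 and Gpd1 by 1.32, which was then also the members' median.

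AAT-treated fat had a lower mean signal than diabetic fat for 6 of the 7 members, all but Lpin1, and none passed the adjusted test (48.8% of all genes were lower and 51.2% higher). In these 6 the groups did not overlap, where 15.9% of all genes were lower and 17.9% higher without overlap, and each had an unadjusted limma p under 0.05, where 1.83% of all genes (239) were lower and 2.94% (383) higher. The 95% intervals of the 6 ran from −2.27 to −0.43 for Gpam, −2.74 to −0.94 for Gpd1, −3.37 to −1.69 for Agpat2, −3.81 to −0.34 for Dgat1, −3.79 to −0.82 for Dgat2 and −3.84 to −1.24 for Pnpla3. After adjustment 0 of 13043 genes passed by limma (0%), and the adjusted p of these 6 ran from 0.327 to 0.962. The median was −2.07 over the members and 0.01 over all genes, and the 6 ran from −1.35 for Gpam to −2.54 for Pnpla3. This comparison shares the diabetic arrays with the preceding one, so that high diabetic arrays enter both. With every array kept, the 6 under an unadjusted limma p of 0.05 became 5, without Gpam, with the mean of all kept probe sets. There 1.76% of all genes were lower at that level. Relative to the adipocyte markers they were also 5, again without Gpam, where 0.253% of all genes were lower at that level. Single arrays moved the sizes: Gpam was at −0.97 and Dgat1 at −0.66 without AAT-treated 2, and Dgat2 at −1.23 without diabetic 2. Some of the 6 did not stay under an unadjusted limma p of 0.05 when arrays were left out. With both arrays that stood apart left out, the members' median was −1.85. The 6 stayed lower, a sign fixed in advance where groups do not overlap.

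Between AAT-treated and normoglycemic fat the members had smaller differences, in both directions. Of the 7, 5 were lower and 2, Lpin1 and Pnpla3, were higher in AAT-treated fat (52% and 48% of all genes), with a median of −0.40 against −0.03 over all genes. The groups did not overlap for Gpd1 and Agpat2, which were lower (16.1% of all genes were), and for Lpin1, which was higher (16% of all genes were). Gpd1, at −1.0 ± 0.39, was the single member with an unadjusted limma p under 0.05, where 1.72% of all genes were lower and 3.41% higher. Gpd1 lost that place without normoglycemic 1, when no member was left, and without AAT-treated 1, when Agpat2 and Dgat1 were under 0.05 instead. It also lost it with the mean of all probe sets, the replicate block, the covariate and relative to the adipocyte markers. Without AAT-treated 2 Lpin1 joined Gpd1, and without both normoglycemic 1 and AAT-treated 2 only Lpin1 was left. Agpat2 differed by −0.72 ± 0.37 and Lpin1 by 0.72 ± 0.37. The 95% intervals of all members but Gpd1 (−1.91 to −0.10) held 0. They were −1.55 to 0.12 for Agpat2, −0.14 to 1.57 for Lpin1, −1.32 to 0.52 for Gpam, −2.33 to 1.14 for Dgat1, −1.59 to 1.38 for Dgat2 and −1.28 to 1.32 for Pnpla3. These widths do not show that the levels were alike. After adjustment 0 of 13043 genes passed by limma (0%), the adjusted p of the members ran from 0.923 to 0.996, with 445 genes higher and 224 lower at an unadjusted p under 0.05. The median was 0.22 without AAT-treated 2, and Dgat1 was then at 0.82. Between the same groups all 10 adipocyte markers were lower in AAT-treated fat (median −0.60), as were all 5 red cell and platelet markers (−1.11), while 7 of 7 smooth muscle markers (2.17), 6 of 6 mesothelium markers (0.80) and 8 of 10 macrophage markers (0.97) were higher. Relative to the adipocyte markers the members' median was 0.20 in place of −0.40, with 5 of the 7 higher. On that scale 88.9% of all genes were higher and the median of all genes was 0.58, above that of the members. The part of these markers in the result was not tested further.

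**Figure D2:**
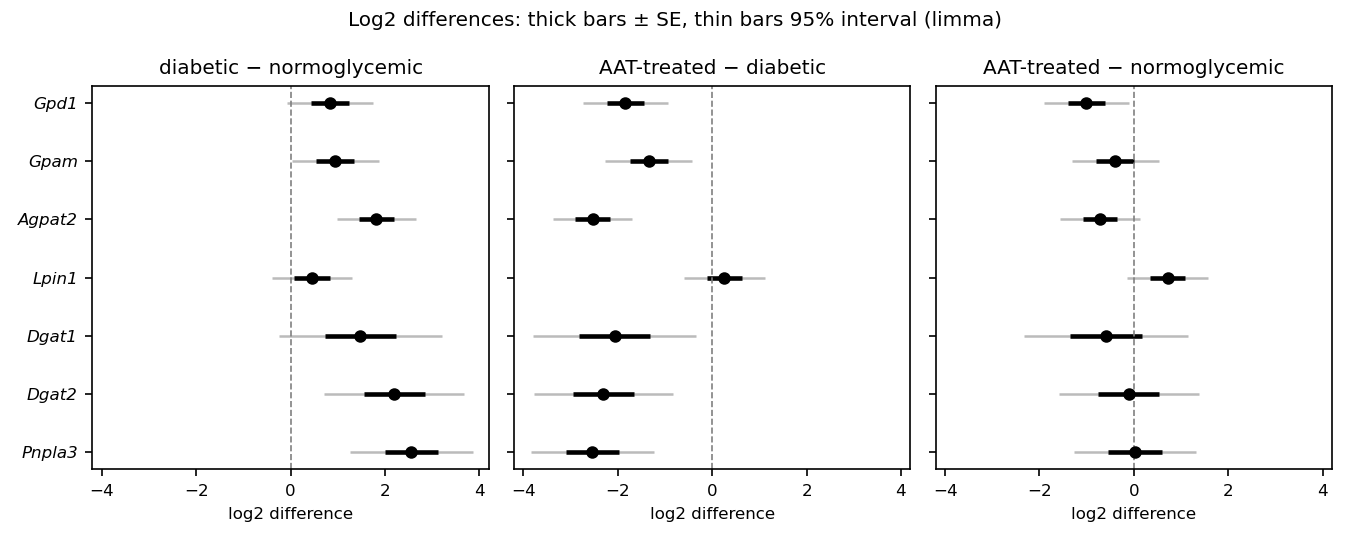
Log2 differences of the 7 enzymes in the 3 comparisons, with SE (thick bars) and 95% interval (thin bars) from limma, n = 2 arrays a group. Points lie right of 0 in the diabetic against normoglycemic panel (0.45 to 2.56) and, except Lpin1 at 0.26, left of 0 in the AAT-treated against diabetic panel.

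Other probe sets of the same genes did not all follow. Agpat2 and Pnpla3 had 1 probe set each, and the other 5 genes had 6 further probe sets above the filter, of which 3 had the same sign as the one standing for the gene in the diabetic against normoglycemic comparison. The 3 that differed were 1439396_x_at of Gpd1 (−0.81 ± 0.38), 1425834_a_at of Gpam (−0.07 ± 0.53) and 1426516_a_at of Lpin1 (−0.02 ± 0.38). The Gpd1 probe set gave 996 and 1172 in normoglycemic against 709 and 482 in diabetic fat, groups that did not overlap. The Gpam probe set was weak, between 128 and 376 on the 6 arrays. The further probe set of Dgat1, 1445229_at, gave 926 and 512, 1666 and 794, and 710 and 111 in normoglycemic, diabetic and AAT-treated fat, with AAT-treated 2 again the lowest. It differed by 0.68 ± 0.66 and, between AAT-treated and diabetic fat, by −1.69 ± 0.66. The further probe set of Dgat2, 1422677_at, gave 1003 and 6404 in diabetic fat, so that diabetic 2 was again highest but diabetic 1 lay below both normoglycemic arrays at 1714 and 1173. The further probe set of Lpin1 gave 4575 and 3910 on the normoglycemic arrays, 3727 and 4680 on the diabetic arrays and 8616 and 4754 on the AAT-treated arrays, with AAT-treated 1 again the highest. Probe set 1416204_at of Gpd1 gave 675 and 725 on the diabetic arrays, within the range of 227 to 752 on the normoglycemic ones, and a last one of Gpd1, at 3.4 to 36.7, lay under the filter. Between AAT-treated and diabetic fat 5 of the 6 had the sign of the standing probe set. Only 1 of the 6, that of Dgat1, had an unadjusted limma p under 0.05. The Gpam probe set ran the other way (0.27 ± 0.53), and 1439396_x_at of Gpd1 was at −0.09 ± 0.38. That of Dgat2 was at −1.23 ± 0.71 with groups that overlapped. With the mean of all kept probe sets in place of the brightest, Gpd1 was at 0.22, Gpam at 0.44 and Lpin1 at 0.22 for diabetic against normoglycemic fat, and the members' median was 1.08. For AAT-treated against diabetic fat Gpd1 was then at −0.92 and Gpam at −0.54.

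**Figure D3:**
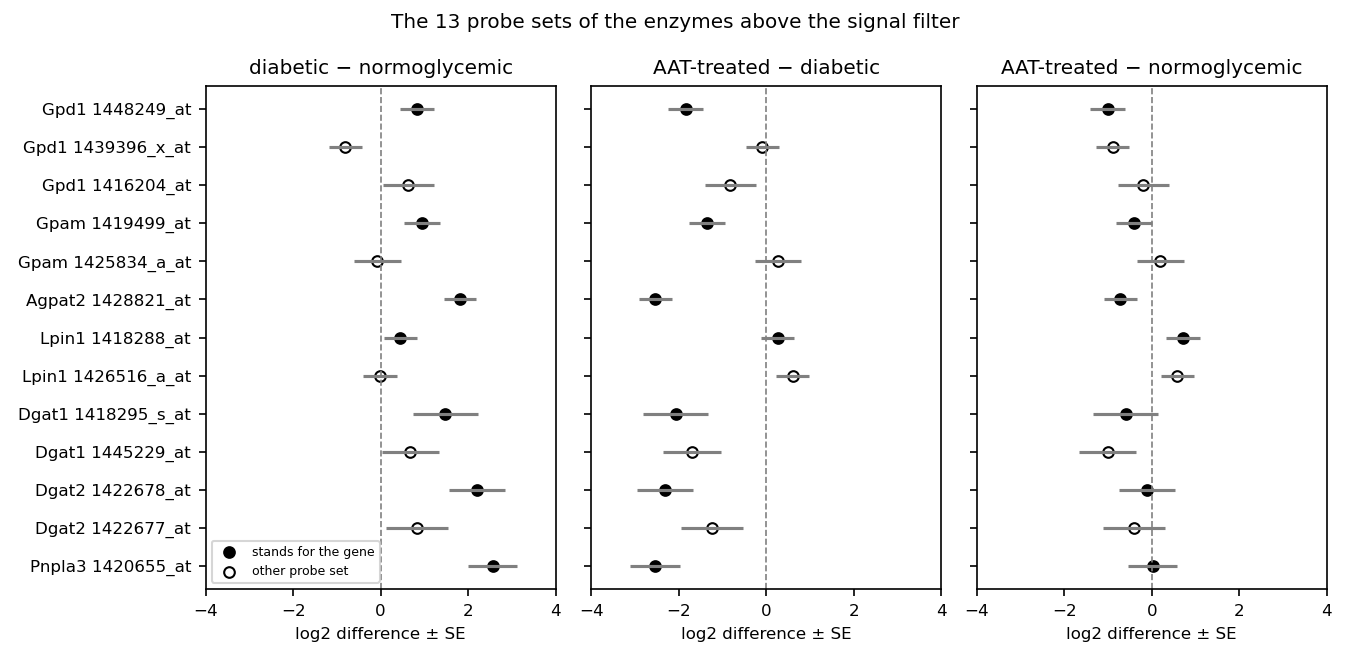
Log2 differences ± SE (limma over all kept probe sets) of the 13 probe sets of the enzymes above the signal filter, filled where the probe set stands for its gene. Open points of Gpd1, Gpam and Lpin1 lie at −0.81, −0.07 and −0.02 in the diabetic against normoglycemic panel, left of the filled points of these genes.

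Across arrays the members shared most of their order. Diabetic 2 was the highest array for 5 members and diabetic 1 for 1, and AAT-treated 2 was the lowest for 4. The mean of the members, each centred on its own mean over the 6 arrays, was −0.26 and −0.52 on the normoglycemic arrays, 0.70 and 1.46 on the diabetic arrays and −0.27 and −1.10 on the AAT-treated arrays. The 10 adipocyte markers had another order, at 0.25 and 0.34 on the normoglycemic arrays, −0.61 and 0.63 on the diabetic arrays and 0.04 and −0.65 on the AAT-treated arrays. Relative to these markers on the same array the members were at −0.51 and −0.87 on the normoglycemic arrays, 1.31 and 0.83 on the diabetic arrays and −0.32 and −0.45 on the AAT-treated arrays. The diabetic arrays were the highest on this scale, diabetic 1 with markers at −0.61. The scaling also raised the share of all genes higher in diabetic than in normoglycemic fat from 46.4% to 66.2%. Between AAT-treated and diabetic fat it raised the share higher from 51.2% to 76.6%. By root mean square difference over the 6 arrays, Gpam (0.28) and Agpat2 (0.33) lay nearest to the mean profile, which includes them, and Lpin1 (0.86) farthest, against a median of 0.95 over all genes. The 5 nearest genes other than the members were Trub2 (0.22), Pgd (0.23), Per3 (0.23), Slc2a4 (0.25) and Rhof (0.26). Per3, a circadian clock gene, gave 507 and 540 on the normoglycemic arrays, 1085 and 1922 on the diabetic arrays and 570 and 442 on the AAT-treated arrays. Pgd is an enzyme of the pentose phosphate pathway, which makes NADPH, and gave 2762 and 2545 on the normoglycemic arrays, 7692 and 15102 on the diabetic arrays and 3801 and 1958 on the AAT-treated arrays. Slc2a4, the insulin-responsive glucose transporter, gave 1494 and 1370, 2335 and 4046, and 1944 and 776 in the same order of groups.

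**Figure D4:**
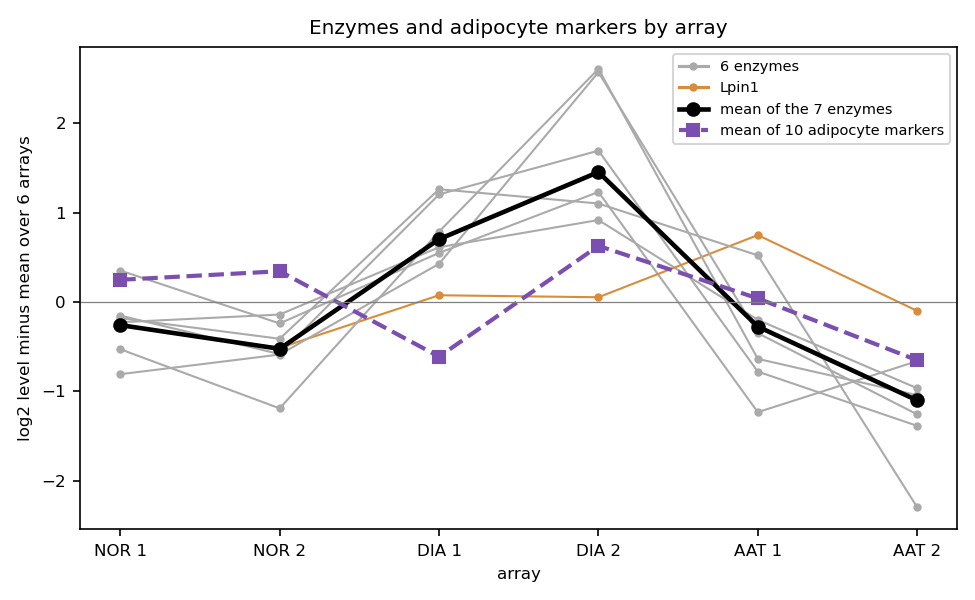
Log2 level of each enzyme minus its mean over the 6 arrays (thin lines, Lpin1 in orange), the mean of the 7 enzymes (black) and the mean of 10 adipocyte markers (dashed); lines only join the values of a gene or list. The enzymes' mean peaks at 0.70 and 1.46 on the diabetic arrays, where the markers are at −0.61 and 0.63.

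Isoenzymes of the assembly steps had medians closer to those of all genes. Of 17 listed genes 13 were tested, and their median was 0.30 for diabetic against normoglycemic fat, with 10 higher, and −0.13 for AAT-treated against diabetic fat, with 7 lower. After adjustment 0 passed by limma in any of the 3 comparisons. Genes of this and the following lists are named where, in any comparison, they lay at an unadjusted p under 0.05 and the groups did not overlap. Of all genes that was 5.27% higher and 4.62% lower in the first comparison, 2.93% and 1.81% in the second, and 3.4% and 1.72% in AAT-treated against normoglycemic fat. Gpat3, an acyltransferase of the endoplasmic reticulum for the first chain, gave 1397 and 2306 on the normoglycemic arrays, 4789 and 4274 on the diabetic arrays and 3243 and 960 on the AAT-treated arrays. It differed by 1.30 ± 0.53 and −1.31 ± 0.53, where here and below the first value is for diabetic against normoglycemic and the next for AAT-treated against diabetic fat. Mogat2, which builds diacylglycerol from monoacylglycerol, differed by 1.27 ± 0.62 and −1.86 ± 0.62, at signals of 64 to 656. Agpat3, an acyltransferase related to Agpat2, differed by 0.21 ± 0.32 and −0.93 ± 0.32.

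Genes that supply glycerol phosphate and fatty acids or form the droplet went in both directions. Of 13 listed genes 9 were tested, with medians of −0.12 and −0.24 in the same 2 comparisons. Pck1, the enzyme of glyceroneogenesis that makes backbone precursor from pyruvate and is repressed by insulin, ran opposite to Gpd1. It gave 18205 and 24811 on the normoglycemic arrays, 5102 and 14139 on the diabetic arrays and 19920 and 27500 on the AAT-treated arrays. Both diabetic arrays were thus below the other 4 (−1.31 ± 0.52 and 1.45 ± 0.52). Bscl2, the seipin of lipid droplet formation, gave 11108 and 7599, 16957 and 18734, and 10489 and 5084, with differences of 0.95 ± 0.43 and −1.28 ± 0.43. The mitochondrial glycerol phosphate dehydrogenase Gpd2, which oxidises the backbone precursor, differed by 0.88 ± 0.49 and −1.21 ± 0.49.

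In the phospholipid branch, which draws on the same phosphatidic acid and diacylglycerol, 20 of 24 genes were tested. Their medians were 0.15 and −0.09, and 3 were higher at an unadjusted p under 0.05 without overlap in diabetic fat, against 5.27% of all genes. Pcyt2, of phosphatidylethanolamine synthesis, differed by 0.99 ± 0.38 and −1.15 ± 0.38. The choline kinase Chkb differed by 1.11 ± 0.34 and −0.67 ± 0.34. The diacylglycerol kinase Dgkz differed by 0.98 ± 0.41 and 0.13 ± 0.41, and by 1.12 ± 0.41 between AAT-treated and normoglycemic fat.

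Triglyceride breakdown genes, 13 of 13 tested, had medians of 0.18 and −0.34. Abhd5, the coactivator of adipose triglyceride lipase, gave 5401 and 3282 on the normoglycemic arrays, 1321 and 1388 on the diabetic arrays and 1748 and 3512 on the AAT-treated arrays. Its diabetic arrays were the lowest of the 6, and it differed by −1.59 ± 0.41 and 0.84 ± 0.41. The carboxylesterase Ces1f differed by 0.34 ± 0.71 and −1.74 ± 0.71, where AAT-treated 2 gave 619 and the remaining 5 arrays 3966 to 7040. Pnpla1, a relative of Pnpla3 active in skin, differed by −0.74 ± 0.47 and −0.48 ± 0.47, and by −1.22 ± 0.47 between AAT-treated and normoglycemic fat.

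Of 18 regulators 17 were tested, with medians of 0.24 and −0.17, and 5 of them lay at an unadjusted p under 0.05 without overlap between diabetic and normoglycemic fat, 3 higher and 2 lower. Srebf1, which encodes the SREBP-1 factor, gave 2189 and 1889 on the normoglycemic arrays, 5445 and 5290 on the diabetic arrays and 2240 and 1520 on the AAT-treated arrays. The 2 diabetic arrays were close together and above the other 4 (1.37 ± 0.32 and −1.50 ± 0.32). Mlxipl, the gene of ChREBP, gave 1632 and 967, 5438 and 5628, and 1620 and 389. Insig1, which retains SREBP in the endoplasmic reticulum and is itself one of its targets, gave 1148 and 1093, 5390 and 8102, and 1144 and 800. Its relative Insig2 ran the other way, at 1788 and 1208, 563 and 923, and 1524 and 1919 (−0.96 ± 0.36 and 1.16 ± 0.36). Pparg, the master factor of fat cell formation, differed by −0.93 ± 0.37 and 0.52 ± 0.37. In none of the 5 lists did a gene pass after adjustment by limma in any of the 3 comparisons.

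**Figure D5:**
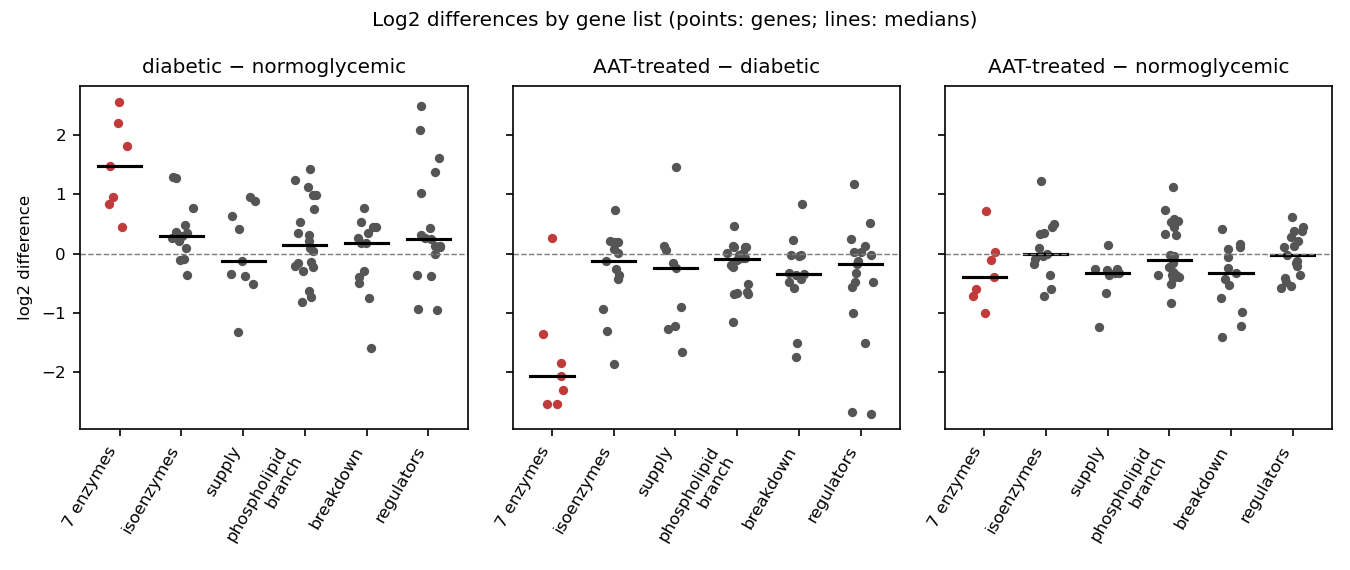
Log2 differences of the 7 enzymes (red) and of the tested genes of 5 related lists (grey), with medians as lines, in the 3 comparisons. The enzymes' median lies at 1.48, −2.07 and −0.40, and those of the other lists lie between −0.34 and 0.30.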

How the data were processed

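Linear intensities were deposited, 1 signal per probe set and array, from MAS5 per the submitters' processing notes, whose version is not given in the sources used here. By this method background and mismatch signal are subtracted within an array, and a constant brought the trimmed mean of every array to 500. Gene names came from the platform's annotation, updated through the RefSeq table; 34945 probe sets had 1 symbol. Probe sets with a mean signal above 164 (the 40th percentile) were kept, the brightest standing for its gene. Differences of log2(signal + 74), where 74 is the 25th percentile, went into limma 3.58.1 under R 4.3.3 (3 group means over 6 arrays, eBayes with trend, 2-sided, Benjamini-Hochberg adjustment over 13043 genes, threshold 0.05). This offset understates changes of weak genes. The step was run on simulated data with 200 genes changed. At the adjusted threshold it recovered 0.4% to 0.8% of 2-fold, 18.4% to 24% of 4-fold and 65% to 69.6% of 8-fold changes. A gene that did not pass may thus still have changed. An exact permutation test of 2 arrays against 2 cannot go below p = 0.333, so none was run. The number of arrays limits the precision. Members and lists were chosen with earlier results of these data known. Genes were named by rule: the members, genes of 5 related lists at an unadjusted p under 0.05 without overlap, and the 5 nearest profiles; Adipoq was chosen after its values were seen. Marker signals of each cell type were summed per array. Pseudocount, filter, scaling, probe set, replicate block, covariate, groups fitted and single arrays were varied.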

Additional observations from a re-analysis of the deposited data

How the results depend on the processing

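Over 18 alternatives 378 values of single members were computed, of which 153 equal the reported value by construction, since no array or probe set behind them changed. Of the 225 that moved 214 kept their sign and 11 did not, and 0 of the 378 passed the adjusted threshold by limma. Many of the 214 could not have turned: where groups do not overlap, neither leaving out arrays nor another pseudocount can change the sign. The 214 are therefore no measure of stability. The 11 were in the AAT-treated against normoglycemic comparison, except Lpin1 between AAT-treated and diabetic fat (−0.16 without AAT-treated 1). Leaving out single arrays, Lpin1 ran from −0.16 to 0.68 there, and between AAT-treated and normoglycemic fat Dgat1 ran from −2.00 to 0.82, Dgat2 from −0.56 to 0.35 and Pnpla3 from −0.31 to 0.35. Without normoglycemic 2, Dgat2 was at 0.0051 and Pnpla3 at −0.31. Without AAT-treated 1, Pnpla3 was at −0.18. Without AAT-treated 2, Dgat1 was at 0.82, Dgat2 at 0.35 and the members' median at 0.22. Without both normoglycemic 1 and AAT-treated 2, an alternative chosen after seeing the data, these were 0.93, 0.24 and 0.24, and Pnpla3 was at 0.55. Relative to the adipocyte markers, also chosen after seeing the data, Gpam was at 0.20, Dgat1 at 0.011, Dgat2 at 0.50 and the median at 0.20; this scaling moved the median of all genes in that comparison from −0.03 to 0.58, and in the others to 0.23 and 0.33. The share of genes higher went with it from 46.4% to 66.2% for diabetic against normoglycemic, from 51.2% to 76.6% for AAT-treated against diabetic and from 48% to 88.9% for AAT-treated against normoglycemic fat, where 5 of the 7 members were then higher. Leaving out single arrays gave member medians of 1.13 to 1.59 for diabetic against normoglycemic, −2.74 to −1.50 for AAT-treated against diabetic and −0.72 to 0.22 for AAT-treated against normoglycemic fat. The first of these was 1.08 with the mean of all kept probe sets. The count of genes past the adjusted threshold was 0 in each comparison and 0 to 3 with single arrays left out, 3 for AAT-treated against normoglycemic fat without normoglycemic 2. For AAT-treated against diabetic fat it was 1 with no filter and 16 relative to the adipocyte markers, and with those markers 10 for AAT-treated against normoglycemic fat; the causes were not tested.

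The replicate numbers are not stated to mark shared mice or days, and deviations of same-numbered arrays correlated at 0.08, −0.12 and −0.51 across genes. With the number as a replicate block 0 genes passed in each comparison, the members' medians stayed at 1.48, −2.07 and −0.40, and 3 members instead of 4 lay at an unadjusted limma p under 0.05 between diabetic and normoglycemic fat (Gpam was lost) and 0 instead of 1 between AAT-treated and normoglycemic fat (Gpd1 was lost).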
